A study of Mus musculus with 36 samples.

Results

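DEX, the synthetic glucocorticoid dexamethasone, was compared with control medium in the libraries of batch 1 whose labelled RNA integrity number (RIN, a score of how little the RNA is degraded) was 6 or above. These were 6 control libraries (numbered 1 to 6) and 5 DEX libraries (numbered 7 to 11), 11 of the 36 RNAseq libraries of the series. All genes with a mean count above 5 over the 11 libraries were tested, which were 19288 of the 55492 entries of the table. The cells were C57EDCX, dissociated mouse cortical cells of embryonic day 18 sold by a supplier, grown as unsorted cultures. On day in vitro 11 the medium was replaced with medium holding 1 µM DEX, or with fresh growth medium for the controls, for 72 h, and the treatment was renewed at 48 h. A further group received 1 µM DEX with 1 µM RU-486, which blocks the same receptor; its 5 batch 1 libraries of RIN 6 or above are used here for levels only. The labels name no separate cultures, so the p-values measure the spread between these libraries, which may be technical.

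Glucocorticoids enter the cell and bind the glucocorticoid receptor, which chaperones of the Hsp90 family hold ready in the cytoplasm. The bound receptor moves to the nucleus, where it raises transcription at glucocorticoid response elements and lowers the activity of other factors, among them AP-1 and NF-kB. In brain it acts in neurons, astrocytes and oligodendrocyte precursors, and its best known targets include the feedback inhibitor Fkbp5, the clock gene Per1, the leucine zipper protein Tsc22d3 and the kinase Sgk1.

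RIN and depth went with treatment in these libraries. RIN was 6.2 in DEX 7 and between 7.1 and 7.8 in the other DEX libraries, against 7.8 to 9.2 in the controls. The DEX libraries held 12.1 to 15.1 M counts and the control libraries 24.2 to 82.4 M, without overlap. Genes of the mitochondrial genome took 21.8% to 40.3% of the counts in DEX libraries and 10.5% to 20.2% in controls, again without overlap, and the 20 most abundant genes took 36.4% to 50.3% against 18.2% to 27.4%. DEX 7 stood apart from the other 10 libraries, with the lowest RIN, the highest mitochondrial share and a TMM scaling factor of 0.735 against 0.933 to 1.11 in the rest. Because every DEX library was shallower than every control library, depth and DEX cannot be told apart here, and RIN could be separated only in part. For the gene lists, counts or medians from 2 other sets of libraries are therefore given as well. The libraries nearest in RIN were controls 1, 3 and 6 (RIN 7.8 to 8.5) against DEX 8 to 11 (7.1 to 7.8). A comparison without DEX as the contrast set 6 batch 2 libraries of RIN 1.4 to 2.7 against 12 batch 2 libraries of RIN 6 or above, within treatment groups, and shares no library with the 11.

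**Figure D1:**
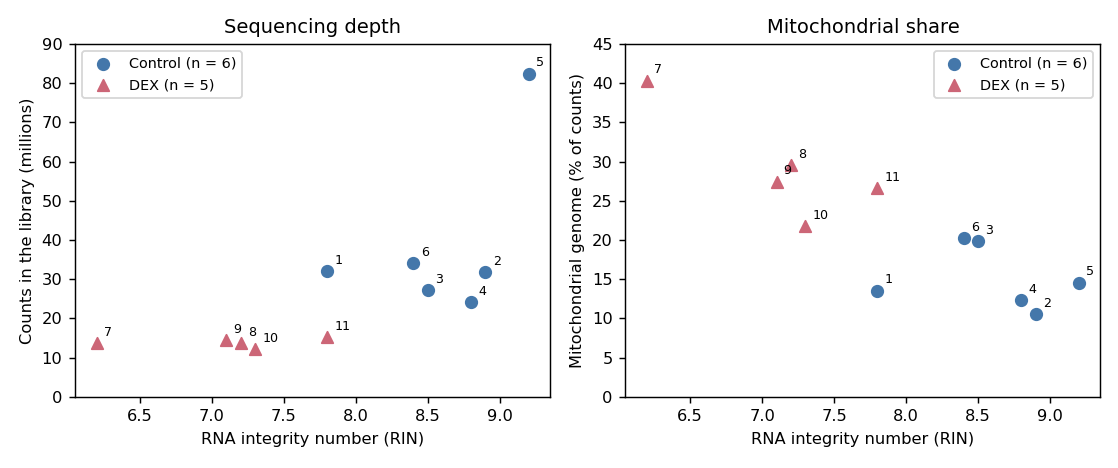
Counts in each library in M (left) and the percent of counts on the mitochondrial genome (right) against the labelled RIN, for the 6 control libraries (circles) and the 5 DEX libraries (triangles), numbered as in the text. DEX libraries sit between 12.1 and 15.1 M counts and from 21.8% to 40.3% mitochondrial counts, below and above all controls respectively, and DEX 7 is the library of RIN 6.2.

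Of the 19288 genes, 1706 (8.84%) were higher and 2304 (11.9%) lower in DEX at a Benjamini-Hochberg adjusted p under 0.05 in edgeR's quasi-likelihood test. At an unadjusted p under 0.05 there were 6509 (33.7%). The median log2 fold change over all tested genes was 0.02. Levels of all 5 DEX libraries lay above those of all 6 controls for 904 genes (4.69%) and below them for 1420 (7.36%). The balance of the directions depended on the scaling: upper-quartile factors moved the median of all genes to 0.10 and gave 2172 higher and 1541 lower, and DESeq2 gave 2359 and 2310. Changes below are on the TMM scale and are read against the percentages of all genes, or of protein-coding genes for lists of these. Of the 14074 protein-coding genes 7.08% were higher and 15.97% lower, with a median of −0.06.

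**Figure D2:**
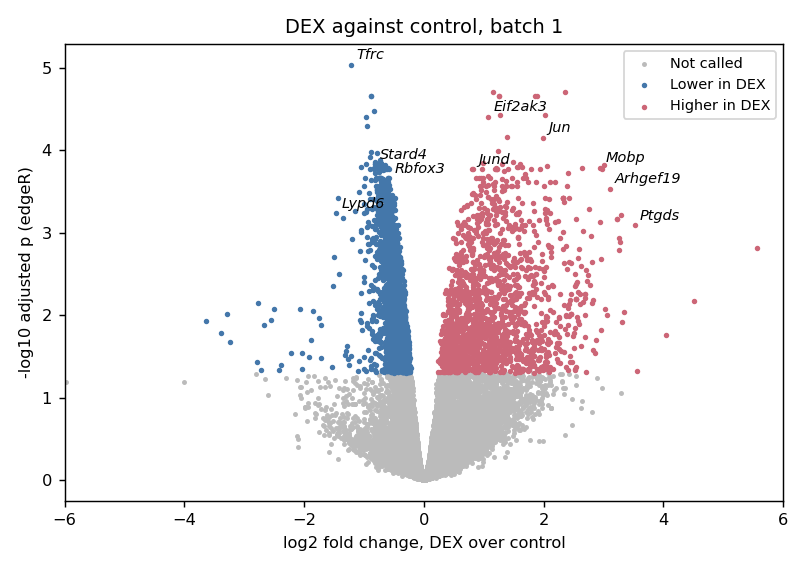
Each point is 1 of the 19288 tested genes, with the log2 fold change of DEX over control on the horizontal axis and the −log10 adjusted p of edgeR on the vertical axis; 7 genes lie outside the horizontal range. Red points (1706) are higher and blue points (2304) lower in DEX at an adjusted p under 0.05, and Tfrc has the smallest adjusted p.

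Direct targets of the glucocorticoid receptor rose in part. Of 40 listed targets 31 were tested, 7 rose and 0 fell, with a median log2 fold change of 0.44 against 0.02 over all genes. Per1 (11:69095217-69109960, plus strand, GRCm38), a repressor of the circadian clock, held 35.8, 40.1 and 77.0 CPM (counts per 1 M counts of the library) in the lowest, median and highest control and 119, 69.9, 73.3, 88.8 and 62.7 CPM in DEX 7 to 11. Control 1 alone reached the DEX range, and Per1 was 1.80-fold higher (log2 0.85 ± 0.20 SE, adjusted p = 0.00623). Tsc22d3, a glucocorticoid-induced inhibitor of inflammatory signalling, stood at 6.69, 8.10 and 14.7 CPM in the controls and at 24.9, 12.2, 12.3, 14 and 12.9 CPM in DEX, so that the groups overlapped and DEX 7 was far the highest. Its rise (log2 0.71 ± 0.23, adjusted p = 0.0383) missed the threshold without DEX 7 (0.46, adjusted p = 0.0935).

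Dusp1, a phosphatase that switches off MAP kinases, was the target with the smallest p. It held 7.90, 10.7 and 12.7 CPM in the controls and 45.3, 23.1, 20.4, 24.8 and 20.5 CPM in DEX, where every library lay above every control (2.58-fold, log2 1.37 ± 0.21, adjusted p = 0.000494). Slc2a1, the glucose transporter of astrocytes and the blood-brain barrier, also had no overlap, with 3.76 to 5.79 CPM in controls and 6.29 to 12 CPM in DEX (log2 0.86 ± 0.18, adjusted p = 0.00396). The other 3 that rose overlapped between the groups: Klf15, a transcription factor of amino acid breakdown (log2 1.26 ± 0.34), Ddit4, an inhibitor of mTOR (0.45 ± 0.12), and the cell cycle inhibitor Cdkn1a (0.50 ± 0.14).

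Several of the best known targets did not pass the test. Fkbp5 held 16.2 to 23.5 CPM (median 20.8) in the controls and 22, 16.8, 19.8, 12.4 and 15.6 CPM in DEX (log2 −0.23 ± 0.15, adjusted p = 0.293). Sgk1 held 13.2 to 18.6 CPM against 29.3, 12.9, 17.8, 13.6 and 20.9 CPM (0.24 ± 0.19, adjusted p = 0.388). Both overlapped with the controls, and DEX 7 was the highest library for Sgk1. Klf9 (0.51 ± 0.36), a transcription factor induced by corticosteroids, Zbtb16 (0.95 ± 0.37), Nfkbia (0.43 ± 0.16), the NF-kB inhibitor, and the metallothionein Mt1 (0.44 ± 0.20) also missed it, with adjusted p-values from 0.0591 to 0.340. DEX 7 was the highest library for Klf9 at 40.9 CPM against 10.4 to 13.4 CPM in the other 4, and without it the log2 fold change of Klf9 was −0.05.

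Most of these values were smaller where RIN differed less. Among the libraries nearest in RIN, 2 of the 31 targets rose, Dusp1 (log2 0.86, adjusted p = 0.00296) and Cebpd, a factor of the inflammatory response (log2 1.03 in the 11 libraries, adjusted p = 0.124), and the median was 0.25. With RIN as a covariate the median was −0.01. The targets had a median of 0.63 in the low-RIN comparison, in which 18 were higher, and of 0.11 in batch 2. Levels with DEX and RU-486 spanned 14.9 to 29.1 CPM for Dusp1 and 61.0 to 117 CPM for Per1 over the 5 libraries, ranges that reach the DEX values.

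The glucocorticoid response element, searched on both strands as GNACANNNTGTNC in the 250 bases before and 50 after each RefSeq gene start of GRCm38.p6, was present in 145 of 27025 genes (0.537%). It was found in 3 of the 25 matched targets, in 2 of 790 matched genes that were higher in DEX and in 3 of 1751 that were lower. The windows of 2 targets are shown because they carry the element close to the start and yet had no called change; capitals mark the match. That of Sgk1 (chr10:21993682-21993734, plus strand) begins 188 bases before the start, and that of Mt1 (chr8:94178975-94179027, plus strand) 94 bases before it.
Sgk1: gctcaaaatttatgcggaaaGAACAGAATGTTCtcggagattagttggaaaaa
Mt1: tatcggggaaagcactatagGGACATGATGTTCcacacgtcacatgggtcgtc

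No corticosteroid receptor or chaperone rose. Of 13 tested genes of this list 0 rose and 5 fell, with a median of −0.29. Nr3c1, the glucocorticoid receptor, held 12.1, 14.2 and 27.6 CPM in the controls and 17.2, 12.3, 10.8, 11.9 and 10.9 CPM in DEX (log2 −0.34 ± 0.21, adjusted p = 0.262), and Nr3c2, the mineralocorticoid receptor, 8.04 to 23.7 CPM against 4.79 to 11.8 CPM (−0.47 ± 0.26, adjusted p = 0.217). Neither difference passed the test, and with Sgk1 and Crhr1 (log2 −0.42) these receptors made up the 4 qPCR markers of the study that were tested, of which 0 were called. With RIN as a covariate both receptors were called lower, Nr3c1 at log2 −1.09 (adjusted p = 0.0230) and Nr3c2 at −1.51 (adjusted p = 0.0139), whereas among the libraries nearest in RIN they stood at −0.61 and −0.80 without a call (adjusted p = 0.111 and 0.0816). The cytosolic chaperones that fell were Hspa8 (1466 to 1897 CPM in controls, 1100 to 1316 CPM in DEX, log2 −0.53 ± 0.09, adjusted p = 0.00110), Hsp90aa1 (−0.42 ± 0.11), the Hsp90 partners Stip1 (−0.32 ± 0.08) and Ptges3 (−0.38 ± 0.11), and Hspa4 (−0.29). Hspa8, Hsp90aa1 and Stip1 had no overlap between the groups. Among the heat shock proteins at large, 14 tested, 2 rose and 5 fell. The stress-induced pair Hspa1b (log2 1.20 ± 0.19) and Hspa1a (0.77) rose, though reads of these near-identical copies may be divided between them, while Dnaja1, Hsph1 and Hspd1 fell beside Hspa8 and Hsp90aa1. Of the 13 receptor and chaperone genes 1 fell among the libraries nearest in RIN, as did 5 of the 14 heat shock genes, and in the low-RIN comparison 6 and 9 were higher, with medians of 0.16 and 0.70.

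Immediate early genes, which neurons transcribe within minutes of activity or stress and which encode factors such as AP-1, had the largest share of rises of the 39 gene lists after the oligodendrocyte markers. Of 32 tested genes 22 rose and 0 fell, and their median was 1.50. Jun (4:95049034-95052222, minus strand) held 36.8, 73.7 and 91.1 CPM in the controls and 349, 199, 267, 297 and 216 CPM in DEX. The groups did not overlap, and Jun was 3.98-fold higher (log2 1.99 ± 0.21, adjusted p = 7.11e-05). Its partner Jund held 86.1 to 108 CPM against 204, 148, 166, 183 and 150 CPM (log2 0.82 ± 0.10, adjusted p = 0.000171), and the antiproliferative gene Btg2 2.85 to 9.09 CPM against 27.1, 13.8, 15.3, 18.6 and 13.6 CPM (log2 1.82 ± 0.27, adjusted p = 0.000440).

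The 4 activity genes that follow were chosen after their values were seen, as were Ddit3, Pdgfra, Mki67, Nefm, Map2, Hmgcs1 and 4 structural RNAs below, and so were list members printed with a log2 fold change but no SE. Fosb had no overlap, with 3.34 to 19.1 CPM in controls and 79.9, 30.2, 51.4, 53.1 and 41.0 CPM in DEX (log2 1.98 ± 0.37). Fos ran from 2.81 to 39.4 CPM in the controls and held 138 CPM in DEX 7 against 21.6 to 28.1 CPM in DEX 8 to 11 (log2 2.02 ± 0.65, adjusted p = 0.0367). Arc, a regulator of glutamate receptor traffic, held 1.31 to 8.46 CPM in controls and 61.7, 6.16, 9.63, 11 and 10.7 CPM in DEX (log2 2.58 ± 0.58, adjusted p = 0.00521). For Fos and Arc control 1, the control of lowest RIN, was the highest control and DEX 7, of lowest RIN of all, the highest library.

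Bdnf, the activity-dependent neurotrophin, showed the same pair of high libraries without a called change, at 20.5 CPM in control 1, at most 3.33 CPM in the other controls, 63.0 CPM in DEX 7 and 3.71 to 5.65 CPM in DEX 8 to 11 (log2 1.50 ± 0.79, adjusted p = 0.198). Its log2 fold change was −0.98 among the libraries nearest in RIN and −0.35 without DEX 7. Without DEX 7 the immediate early genes had 16 risen, 3 fallen and a median of 0.95; among the libraries nearest in RIN 10 rose, 2 fell (Inhba and Homer1) and the median was 0.61. Jun, Jund, Btg2, Fosb and Dusp1 kept an adjusted p under 0.05 in both of these settings. With RIN as a covariate Jun alone of them was called (log2 1.32, adjusted p = 0.0233). Jund stood at 0.59 (adjusted p = 0.0534) and Btg2 at 0.58 (adjusted p = 0.207) in that fit. Fosb was at 0.70 (adjusted p = 0.443) and Dusp1 at 0.36 (adjusted p = 0.374). In the low-RIN comparison 27 of the 32 were higher, with a median of 1.34, and with RIN as a covariate the median was −0.20.

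The cAMP response element TGACGTCA, searched on both strands, lay in the promoter window of 4 of 27 matched immediate early genes, of 35 of 790 matched genes higher in DEX (4.43%) and of 43 of 1751 lower (2.46%), against 409 of 11692 tested genes (3.50%). Windows of 2 genes that rose and hold it are given, with the element in capitals. In Btg2 (chr1:134079294-134079341, minus strand) it begins 166 bases and in Dusp1 (chr17:26508588-26508635, minus strand) 143 bases before the start.
Btg2: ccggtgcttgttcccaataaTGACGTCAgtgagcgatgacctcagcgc
Dusp1: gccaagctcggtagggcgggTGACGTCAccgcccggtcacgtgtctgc

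Genes of the integrated stress and unfolded protein responses moved in both directions. Of 36 tested, 9 rose and 4 fell, with a median of 0.32. Eif2ak3 (6:70844515-70905245, plus strand), the PERK kinase that slows translation when unfolded protein collects in the endoplasmic reticulum, held 27.1, 32.3 and 39.6 CPM in the controls and 64.8, 58.7, 75.9, 72.1 and 72.7 CPM in DEX. It was 2.11-fold higher without overlap (log2 1.08 ± 0.11, adjusted p = 3.95e-05). Its value was 1.09 among the libraries nearest in RIN (adjusted p = 0.000748) and 0.12 in the low-RIN comparison (adjusted p = 0.369), and DEX 7 was not its highest library. Ppp1r15a, which restores translation (log2 1.48 ± 0.25), and Ddit3, the death-promoting factor CHOP (1.51 ± 0.29), also rose, the latter from 9.18 to 36.3 CPM in controls to 36.2 to 66.0 CPM in DEX. The 4 that fell were Manf, Canx, Pdia6 and Dnajb11. Manf, a secreted factor induced by such stress, held 39.8 to 47.3 CPM in controls and 23.8, 25.6, 29.4, 28.5 and 34 CPM in DEX (log2 −0.66 ± 0.10), and Canx, a chaperone of the endoplasmic reticulum, fell by 0.50 on the log2 scale (SE 0.09), as did Pdia6 and Dnajb11 by 0.51 and 0.40. Of the 36, 3 rose among the libraries nearest in RIN, 2 fell and the median was 0.01, and in the low-RIN comparison 7 were higher and 17 lower, with a median of −0.29. Ppp1r15a stood at 1.09 among the libraries nearest in RIN (adjusted p = 0.00570) and at 0.51 with RIN as a covariate (adjusted p = 0.311).

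Oligodendrocyte lineage markers had the largest share of rises of the 39 lists. Of 21 tested, 18 rose and 1, Fyn (log2 −0.24), fell, and the median was 1.83. In these unsorted cultures more cells of a type and more RNA per cell cannot be told apart. Mobp (9:120149707-120181484, plus strand), a structural protein of compact myelin, held 4.73, 11.1 and 28.2 CPM in the controls and 131, 85.9, 117, 97.1 and 89.2 CPM in DEX, a 7.70-fold difference without overlap (log2 2.94 ± 0.36, adjusted p = 0.000163). Mbp, myelin basic protein, held 41.1 to 177 CPM against 293 to 496 CPM (log2 2.03 ± 0.31) without overlap. The rises also took in Cnp (1.93 ± 0.24), Mag (2.42 ± 0.35), Mal (2.54 ± 0.41) and the transcription factors Myrf (2.06), Olig1 (1.73) and Sox10 (1.86). Erbb3, a neuregulin receptor, rose too (2.39 ± 0.33), but it is not on the list and is named for the size of its rise.

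Many of these markers are known from differentiated, myelin-forming cells. Pdgfra, which marks the precursors, held 1.85 to 4.80 CPM in the controls and 15.9 CPM in DEX 7 but 0.726 to 1.97 CPM in DEX 8 to 11 (log2 0.68 ± 0.59, adjusted p = 0.453; −0.81 without DEX 7). Pdgfra is 1 of the 21 tested markers, of which 18 rose and 20 had positive values. It therefore does not describe the early markers of the list as a set. The summed level of all 22 markers was 454 to 766 CPM in controls and 1052 to 1519 CPM in DEX, and none of the markers was at 0. Among the libraries nearest in RIN 12 of 21 rose, with a median of 1.16; with RIN as a covariate 2 rose, with a median of 0.87. In batch 2 6 rose, with a median of 0.52, and in the low-RIN comparison 14 were higher, with a median of 1.03. With DEX and RU-486, Mobp held 23.9 to 82.6 CPM, below all DEX libraries and overlapping with the highest control. Mbp, Cnp, Mag and Mal overlapped with the DEX libraries only through library 15 of that group, in which Mobp was highest too. Its levels were 359, 56.8, 50.9 and 25.8 CPM, against lowest DEX levels of 293, 38.6, 35.2 and 20.3 CPM. In every other library with DEX and RU-486, Mbp, Cnp, Mag and Mal lay below all DEX libraries.

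Astrocyte markers rose in part. Of 21 tested 8 rose and 1, Atp1b2 (log2 −0.39), fell, with a median of 0.39, but the summed level was not higher, at 564 to 921 CPM in controls and 391 to 699 CPM in DEX. Aldoc, an aldolase of astrocytes, held 2.97 to 5.69 CPM in controls and 14.1, 11, 11.8, 7.82 and 8.41 CPM in DEX (log2 1.31 ± 0.20, adjusted p = 0.000560). Apoe, a lipid carrier (1.83 ± 0.31), the filament protein Gfap (2.46 ± 0.48), the gap junction gene Gja1 (2.56) and Sox9 (1.11 ± 0.22) rose as well. Gfap was scarce throughout, at 0.0579 to 0.647 CPM in controls and 1.29 to 3.64 CPM in DEX, and Aqp4, the water channel of mature astrocytes, was at 0 to 1.59 CPM and 0 to 0.642 CPM (−0.95 ± 0.96, adjusted p = 0.529).

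Markers of dividing cells and progenitors had 9 risen and 1, Rrm2 (log2 −0.76), fallen among 28 tested, with a median of 0.67 and a summed level of 87.2 to 148 CPM in controls against 156 to 219 CPM in DEX. The rises included Notch1 (1.67 ± 0.31), the intermediate filaments Vim (1.35 ± 0.26) and Nes (1.32 ± 0.29), and Sox2 (0.99); the proliferation marker Mki67 held 1.68 to 10.9 CPM against 5.85 to 18.9 CPM (1.14 ± 0.40, adjusted p = 0.0547). Of 23 vascular and mesenchymal markers 11 were tested, 3 rose (Ptgds, Kdr and Foxc1) and Slc6a13 was at 0; their summed level was 3.19 to 10.5 CPM against 8.52 to 20.8 CPM. Microglia were close to absent: 7 of 22 markers were tested, Sall1 rose (log2 1.11), Cx3cr1 had at most 5 counts and Tmem119 at most 2 in any library, and the sum was 8.25 to 14.1 CPM against 11.2 to 19 CPM. The low-RIN comparison moved the same lists upward, with medians of 0.96 for astrocyte, 1.14 for progenitor and 2.08 for vascular markers.

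Fewer of these glial and progenitor genes were called higher among the libraries nearest in RIN, where RIN still differed, and with RIN as a covariate. The share of all genes called higher also went from 8.84% to 4.77% and 1.55%. In the 11 libraries the medians were 0.39 for astrocyte, 0.67 for progenitor and 0.90 for vascular markers. Of astrocyte markers 3 rose among the libraries nearest in RIN (median 0.52) and 0 with RIN as a covariate by edgeR (median 0.56), where 5 were higher at an unadjusted p under 0.05, and of progenitor markers 5 (median 0.59) and 1 (median 0.72). Of vascular markers 2 (median 1.46) and 1 (median 1.43) rose. Sox9 went from 1.11 in the 11 libraries to 0.69 among those nearest in RIN and 0.18 with the covariate, and Vim from 1.35 to 0.95 and 0.42. Gfap, at 2.46, stood at 2.59 and 3.12 and Apoe, at 1.83, at 1.86 and 1.88, of which neither was called with the covariate (adjusted p = 0.0570 and 0.0779).

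**Figure D3:**
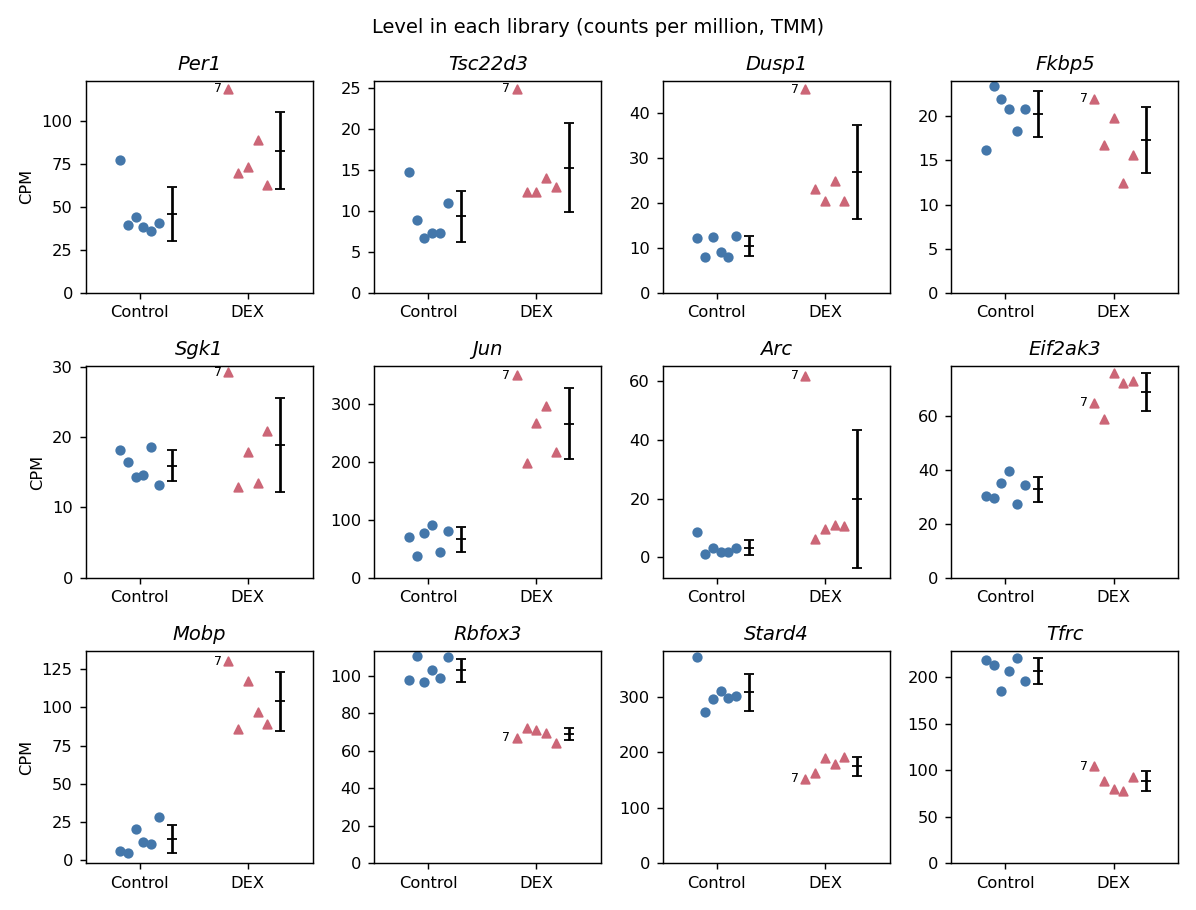
CPM (TMM-scaled) of 12 genes in each of the 6 control (circles) and 5 DEX libraries (triangles), with the mean ± SD of each group beside the points and DEX 7 labelled. Jun, Dusp1, Eif2ak3 and Mobp lie higher and Rbfox3, Stard4 and Tfrc lower in every DEX library than in any control, Fkbp5 and Sgk1 overlap, and in Per1, Tsc22d3 and Arc the highest value is that of DEX 7.

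Neuronal genes fell moderately. All 18 pan-neuronal markers had counts, as befits cortical cells, and their summed level was 7178 to 8608 CPM in controls and 5413 to 6801 CPM in DEX, without overlap. Of the 18, 11 fell and 1 rose, with a median of −0.33. Rbfox3 (11:118489762-118911597, minus strand), which encodes the nuclear antigen NeuN, held 96.8, 101 and 111 CPM in the controls and 67.0, 72.3, 71.2, 69.3 and 64.4 CPM in DEX, 1.50-fold lower with tight groups (log2 −0.58 ± 0.08, adjusted p = 0.000219). Rbfox3 was higher in the low-RIN comparison (0.31, adjusted p = 0.0214), the opposite direction. The RNA-binding protein Elavl4 (−0.57 ± 0.10), the migration gene Dcx (−0.87 ± 0.15) and the tubulin Tubb3 (−0.65 ± 0.13) fell. Nefm, a neurofilament, rose (0.87 ± 0.22), with 94.6 CPM in DEX 7 against 33 to 49.4 CPM in the other 4. Map2, the dendritic microtubule protein, held 1398 to 1865 CPM in the controls, 2023 CPM in DEX 7 and 971 to 1161 CPM in DEX 8 to 11, which gave no call with DEX 7 (−0.36 ± 0.17, adjusted p = 0.137) and a fall without it (−0.60, adjusted p = 0.000699). Of the 18 markers 9 fell and 1 rose among the libraries nearest in RIN, and in the low-RIN comparison 11 were higher and 6 lower.

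Excitatory neuron markers had 5 falls and 1 rise, Bcl11b (log2 0.52), among 17 tested, with a median of −0.04. Those that fell were the cortical transcription factors Tbr1 (−0.30 ± 0.08) and Neurod6 (−0.48), the kinase Camk2a (−0.59 ± 0.16) and the vesicular glutamate transporters Slc17a7 (−0.60 ± 0.17) and Slc17a6 (−0.50). Of 21 interneuron markers 3 rose, among them Prox1 (1.14) and Dlx1 (0.49), and Calb2 fell (−0.63), with a median of 0.30. Without DEX 7 1 interneuron marker rose and the median was −0.04; 1 rose among the libraries nearest in RIN and 0 with RIN as a covariate by edgeR (1 at an unadjusted p under 0.05), and in the low-RIN comparison 17 of the 21 were lower, with a median of −1.29. Of the excitatory markers 3 fell among the libraries nearest in RIN, and 11 of the 17 were higher at low RIN. The summed levels of both lists overlapped between the groups, at 1601 to 1868 CPM and 1364 to 1774 CPM for the excitatory markers.

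Neurotransmitter receptor genes had falls and no rise. Of 15 GABA receptor genes 9 fell, with a median of −0.52, and of 24 glutamate receptor genes 9 fell, with a median of −0.22. Gabra2, a subunit of GABA-A receptors, held 192, 239 and 271 CPM in the controls and 131, 145, 159, 142 and 140.2 CPM in DEX, without overlap (1.65-fold lower, log2 −0.72 ± 0.10, adjusted p = 0.000221). Gabra5 (−0.73 ± 0.11) had no overlap either. Grin2b (6:135713233-136173511, minus strand), an NMDA receptor subunit abundant in the developing brain, held 952 to 1385 CPM against 790, 596, 827, 608 and 547 CPM (log2 −0.80 ± 0.13, adjusted p = 0.000894). Gria1, an AMPA receptor subunit (−0.51 ± 0.09), and Grm5, a metabotropic receptor (−0.82 ± 0.17), fell, the latter with DEX 7 at 211 CPM inside the control range of 183 to 339 CPM. Among the libraries nearest in RIN 10 GABA and 6 glutamate receptor genes fell. Both lists were also lower in the low-RIN comparison, with medians of −0.95 and −0.65.

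Postsynaptic scaffolds behaved otherwise in that comparison. Of 41 postsynaptic density genes 20 fell in DEX and 0 rose, with a median of −0.34; 19 fell among the libraries nearest in RIN, whereas the median of the low-RIN comparison was 0.23, with 19 higher and 12 lower. Dlg2, a scaffold of the PSD-95 family, held 393, 442 and 495 CPM in controls and 290, 273, 286, 280 and 271 CPM in DEX (1.57-fold lower, log2 −0.65 ± 0.08, adjusted p = 0.000171). Its value was −0.67 among the libraries nearest in RIN (adjusted p = 0.00257) and 0.23 in the low-RIN comparison. The adhesion protein Nlgn3 (−0.78 ± 0.11) and Homer2 (−0.56 ± 0.11) fell, Homer2 with DEX 7 at 88.7 CPM beside controls of 88.5 to 104 CPM and the other 4 at 54.8 to 67.2 CPM.

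Of 47 genes of synaptic vesicles and release, 17 fell and Sv2c rose (log2 1.04), with a median of −0.23; the calcium sensor Doc2b (−0.73 ± 0.10) and the active zone gene Erc2 (−0.47 ± 0.08) led. Of 65 voltage-gated channel genes, 17 fell and Scn1a rose (0.47), with a median of −0.21. Scn2a, a sodium channel of axons, held 276 to 354 CPM in controls and 207, 184, 200, 181 and 198 CPM in DEX (−0.74 ± 0.08, adjusted p = 0.000133), and the potassium channel Kcnd2 fell by 0.79 on the log2 scale (SE 0.11). Of 11 neurotrophin genes Ntrk3 (−0.56 ± 0.10), Sort1 (−0.62) and Ntrk2 (−0.43) fell and the low-affinity receptor Ngfr rose (1.56). The falls numbered 15 for vesicle and release genes, 14 for channel genes and 3 for neurotrophin genes among the libraries nearest in RIN. In the low-RIN comparison 15 vesicle genes were higher and 16 lower, and 24 channel genes higher and 26 lower. Of all protein-coding genes 29.2% were higher and 29.9% lower there.

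Genes of cholesterol synthesis and uptake, a list that also holds the fatty acid genes Scd1, Scd2, Fasn and Acaca, had falls and no rise. Of 29 tested genes of this list 16 fell and 0 rose, 15 of them with no overlap, and the median was −0.38. Stard4, a sterol carrier, held 273, 300 and 372 CPM in the controls and 152, 162, 190, 178 and 192 CPM in DEX (1.77-fold lower, log2 −0.82 ± 0.10, adjusted p = 0.000149). Scd2, the desaturase of brain, held 1509 to 1787 CPM against 796, 979, 1086, 958 and 968 CPM (−0.78 ± 0.09), and Scd1 fell by 0.60 (SE 0.08). Sqle (−0.63 ± 0.09) and Hmgcs1 (−0.68 ± 0.11), enzymes of cholesterol synthesis, and Srebf2 (−0.44), its transcription factor, fell too. The number fallen was 13 among the libraries nearest in RIN (median −0.32) and 5 in batch 2 (median −0.22), and in the low-RIN comparison 23 of 29 were lower, with a median of −0.87.

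The sterol response element, searched on both strands as TCACNCCAC, was in promoter windows of 388 of 27025 genes (1.44%). It was in 18 of 790 matched genes higher in DEX (2.28%) and 29 of 1751 lower (1.66%), against 159 of 11692 tested genes (1.36%). Of 19 matched genes of the list 1 held it, Hmgcs1. The Hmgcs1 window (chr13:119690194-119690242, plus strand) is shown because the gene fell and the element, in capitals, begins 137 bases before its start.
Hmgcs1: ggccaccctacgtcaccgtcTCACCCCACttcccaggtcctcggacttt

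Tfrc (16:32608920-32632794, plus strand), the transferrin receptor through which cells take up iron, had the smallest adjusted p of all tested genes. It held 185, 211 and 221 CPM in the controls and 105, 88.8, 80.2, 77.7 and 92.6 CPM in DEX, so that it was 2.33-fold lower with no overlap (log2 −1.22 ± 0.09, adjusted p = 9.24e-06). The value was −1.22 among the libraries nearest in RIN too (adjusted p = 9.60e-05). It was −1.76 in the low-RIN comparison and −0.23 in batch 2 (adjusted p = 0.212), and the difference between the batches passed the test (0.99, adjusted p = 0.00184). With DEX and RU-486 the level was 85.5 to 128 CPM, below all controls.

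Ribosomal protein genes (RPGs), here 86 entries that comprise 82 protein-coding genes and 4 pseudogenes, had 27 risen and 0 fallen, with a median of 0.24. Rpl36 held 43.1 to 60.0 CPM in controls and 69.1, 76.0, 79.8, 93.6 and 88.2 CPM in DEX (log2 0.62 ± 0.10, adjusted p = 0.000894) and Rpl41 180 to 245 CPM against 265 to 362 CPM (0.57 ± 0.11). Both lay above the controls in every DEX library, with modest differences. Among the libraries nearest in RIN 5 RPGs rose, and in the low-RIN comparison 81 of 86 were higher, with a median of 1.6.

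RP pseudogenes, mostly intronless copies of RPG transcripts, had 62 of 136 risen and 0 fallen, with a median of 0.95. They share sequence with their parent genes and the counting may divide reads between them, so their levels are uncertain. Rps16-ps2 held 4.59 to 6.99 CPM in controls and 10.4, 13.9, 14, 15.3 and 14.4 CPM in DEX (log2 1.21 ± 0.15), and Rpl36-ps12 (1.22 ± 0.15) and Rps12-ps19 (1.33 ± 0.17) were alike. Of the RP pseudogenes 41 rose among the libraries nearest in RIN, and in the low-RIN comparison 102 were higher, with a median of 1.57. Processed pseudogenes as a class had 428 risen and 6 fallen of 1587.

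Several classes of RNA that carry no poly(A) tail had rises. Replication-dependent histone genes, whose messages end in a stem-loop, had 41 risen and 0 fallen of 66, with a median of 0.86; Hist1h2bq (log2 1.6 ± 0.19) and the linker histone Hist1h1c (1.04 ± 0.14) had no overlap, though many histone genes are near copies of each other. Of the histone genes 26 rose among the libraries nearest in RIN, 3 with RIN as a covariate and 0 in batch 2 by edgeR (10 at an unadjusted p under 0.05, median 0.13), and 58 were higher at low RIN (median 1.25). Among short RNAs 17 of 38 snRNA, 18 of 22 misc_RNA, 15 of 61 snoRNA and all 10 miRNA entries rose, and none of them fell. The classes differed in the other comparisons. The median of the snRNA was 1.91 here, 1.68 at low RIN and −0.52 in batch 2, and that of the snoRNA 1.32, −1.18 and −0.68. The miRNA had medians of 2.31, 2.32 and 0.77, and 5 entries annotated as ribosomal RNA, all of which rose, 2.53, 4.61 and −3.06. Over the 137 tested small and structural RNAs other than miRNA, called or not, 33.6% had the same sign in batch 2 as in batch 1, against 60.3% of all genes, and their median in batch 2 was −0.34. Rn7s2, RNA of the signal recognition particle, held 18534 to 29853 CPM in controls and 32091 to 80929 CPM in DEX (1.18 ± 0.22). CT010467.1 (17:39846353-39848827, minus strand), annotated as ribosomal RNA, held 5525 to 8117 CPM in controls and 8450, 49136, 38618, 33456 and 21111 CPM in DEX (2.08 ± 0.31). In that gene DEX 7 was the lowest DEX library, and the low-RIN comparison gave −0.60.

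Hosts of small nucleolar RNAs rose as well, with 8 of 15 higher and 0 lower and a median of 0.48. Snhg5 held 14.4 to 21.1 CPM in the controls and 34.3, 51.1, 32.7, 30.4 and 28 CPM in DEX (log2 0.97 ± 0.15, adjusted p = 0.000573), with 0.99 among the libraries nearest in RIN and −0.62 in the low-RIN comparison. That list had a median of −0.70 in the low-RIN comparison, the opposite sign. Of 12 nuclear-retained long RNAs Neat1, the scaffold of paraspeckles (1.22 ± 0.22), and Snhg14 (0.60) rose and Peg13 (−0.43) fell; in the low-RIN comparison 10 of the 12 were lower.

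Of the 13 protein-coding genes of the mitochondrial genome 2 rose, mt-Nd3 (log2 1.32 ± 0.41) and mt-Nd4l (1.02), and all 13 had positive values, with a median of 0.37. The mitochondrial share of counts came mostly from the ribosomal RNAs. Mt-Rnr2 held 46496 to 103455 CPM in controls and 304575, 164335, 143666, 118721 and 144095 CPM in DEX (1.25 ± 0.25), and mt-Rnr1 rose by 1.24 (SE 0.27). Nuclear genes of oxidative phosphorylation had 0 risen and 6 fallen of 79 (median −0.13), mitochondrial ribosomal proteins 0 and 8 of 78 (−0.09), with Mrpl3 first (−0.52 ± 0.09), and proteasome subunits 0 and 7 of 36 (−0.20), with Psmd1 first (−0.75 ± 0.10). Among all genes 11.9% were lower, and among protein-coding genes 15.97%. Translation factors were split, with 4 risen and 11 fallen of 64. Falls among the libraries nearest in RIN numbered 1 for oxidative phosphorylation, 2 for mitochondrial ribosomal and 1 for proteasome genes, and at low RIN all 13 mitochondrial genes were higher.

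The 15 largest rises and 15 largest falls were taken among genes called without overlap and at a mean of at least 1 CPM, which 476 higher and 1302 lower genes met. Ptgds, a prostaglandin synthase of meninges and oligodendrocytes, led the rises with 0.0869 to 0.53 CPM in controls and 14.3, 1.97, 2.42, 1.94 and 1.98 CPM in DEX (log2 3.52 ± 0.59; 2.43 without DEX 7, 2.50 among the libraries nearest in RIN and 1.36 with RIN as a covariate, adjusted p = 0.421). Arhgef19, an exchange factor for small GTPases, followed with 0.131 to 0.647 CPM against 2.18, 1.42, 2.35, 2.90 and 3.15 CPM (3.10 ± 0.43; 2.60 among the libraries nearest in RIN). The others include Mobp, Arid5a, Gpx8, Pla2g7, Snx33, Mal, Gfap, Mag, Gjc3, Erbb3, Rnu1a1 and Creb5, of which Mobp, Mal and Mag are among the myelin markers above. Arid5a, an RNA-binding protein, held 2.11 to 16.2 CPM against 60.4, 30.4, 35.6, 36.4 and 29.8 CPM (2.76 ± 0.43), with control 1 and DEX 7 again the highest of their groups.

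The largest falls were smaller in size. Pcdha4, a protocadherin whose exons overlap those of its cluster, so that its counts are uncertain, held 16.8 to 31.4 CPM in the controls and 0, 9.0, 8.70, 10.3 and 8.96 CPM in DEX (log2 −1.75 ± 0.44; −1.44 without DEX 7). Slc17a8, a vesicular glutamate transporter (−1.51 ± 0.33), the secreted ligand Wnt4 (−1.51 ± 0.29) and the neighbours Lypd6 (−1.47 ± 0.23) and Lypd6b (−1.43 ± 0.21), which lie on chromosome 2 and of which Lypd6 is known to act on Wnt signalling and nicotinic receptors, came next. Lypd6 held 11.6 to 24.3 CPM in controls and 7.93, 9.08, 4.85, 4.60 and 5.68 CPM in DEX, and Lypd6b 8.11 to 17.4 CPM against 3.07 to 5.73 CPM. The rest were Tubd1, Tfrc, Samd9l, Gpr139, Serpini1 (−1.14 ± 0.18), Zim1, Mmp15, AC109619.1, Inhbb and the semaphorin receptor Plxnc1 (−1.06 ± 0.13).

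Changes that also moved at low RIN formed much of the rise. The low-RIN libraries (RIN 1.4 to 2.7) lay below the range of the 11 libraries (6.2 to 9.2). The size of a RIN effect within that range therefore cannot be read from them. Of the 1706 genes higher in DEX, 1069 (62.7%, and 20.1% of the 5330 higher at low RIN) were higher in the low-RIN comparison and 145 (8.50%) lower, where 27.6% and 27.2% of all genes were called. Of the 2304 lower in DEX, 1181 (51.3%, and 22.5% of the 5242 lower at low RIN) were lower and 363 (15.8%) higher. Over protein-coding genes the 2 sets of log2 fold changes had a Spearman rho of 0.33, as a description across 14074 genes that are not independent. RPGs, histones, immediate early genes and glial markers were lists that moved up in both, and sterol genes and GABA receptors moved down in both, so for these the part of RIN in the DEX difference cannot be told apart. Postsynaptic genes, snoRNA hosts and Rbfox3 had opposite signs.

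In the libraries nearest in RIN 921 genes (4.77%) were higher and 1463 (7.59%) lower. Of the calls of the 11 libraries, 809 of those higher (47.4%) and 1213 of those lower (52.6%) were called there with the same sign, in 7 libraries instead of 11. With RIN as a covariate 299 (1.55%) were higher and 1187 (6.15%) lower, and 196 (11.5%) and 650 (28.2%) of the calls remained. Called in both of these settings were 190 of the genes higher and 625 of those lower in DEX, and of these 73 and 307 were not called in the same direction at low RIN. The 73 include Eif2ak3, Snhg5, Mageh1, Srpr, Scarna2, CT010467.1 and Dock10, and the 307 include Pcyt1b, Caln1, Usp46, Prkce, Dlg2 and Rbfox3. Of these named genes Dock10 alone was called in batch 2 (log2 0.83, adjusted p = 0.0277 by edgeR). Of the 190 and 625 genes, 4 and 8 were called in batch 2 in the same direction, where 0.461% of all genes were higher and 0.441% lower. With log2 depth as a covariate 0 genes were higher and 1 was lower, while 1635 had an unadjusted p under 0.05; thinned to the smallest library of 12.1 M counts, 1546 were higher and 2071 lower.

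**Figure D4:**
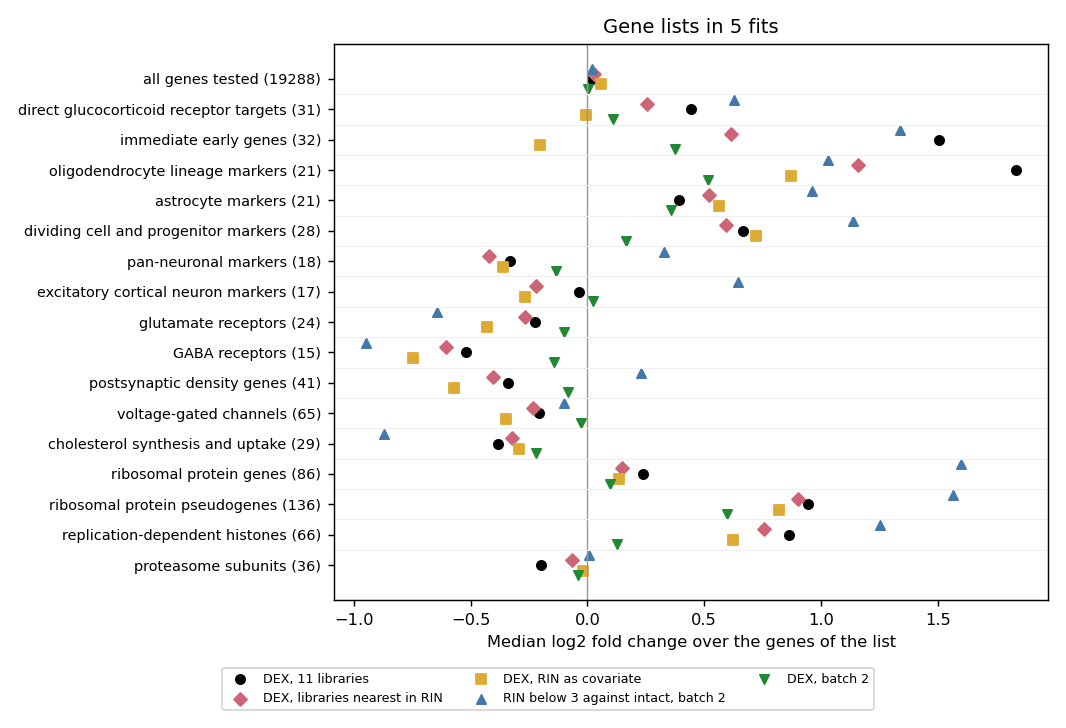
Median log2 fold change of 16 gene lists and of all tested genes (number of tested genes in brackets) in 5 fits: DEX over control in the 11 libraries, in the libraries nearest in RIN, with RIN as a covariate and in batch 2, and RIN below 3 over RIN 6 or above in batch 2. Oligodendrocyte markers lie at 1.83 in the 11 libraries and at 0.52 in batch 2, RPGs at 0.24 and at 1.6 in the low-RIN fit, and postsynaptic density genes at −0.34 and 0.23.

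Transcript length went with the falls. In 10 equal bins of the protein-coding genes by their longest annotated transcript, the share lower in DEX was 3.70% in the shortest bin (median 1094 bases) and 28.2% in the longest (median 8607 bases), while the share higher went from 10.7% to 6.33%. The median log2 fold change went from 0.08 to −0.15, and from 0.13 to −0.20 among the libraries nearest in RIN. In batch 2 the medians of these 2 bins were −0.02 and 0.04, and at low RIN 0.47 and −0.02. Among the genes that fell, Grin2b has a longest transcript of 24060 bases, Dlg2 of 7813 and Gabra5 of 2671, and the part of length in their falls was not tested.

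**Figure D5:**
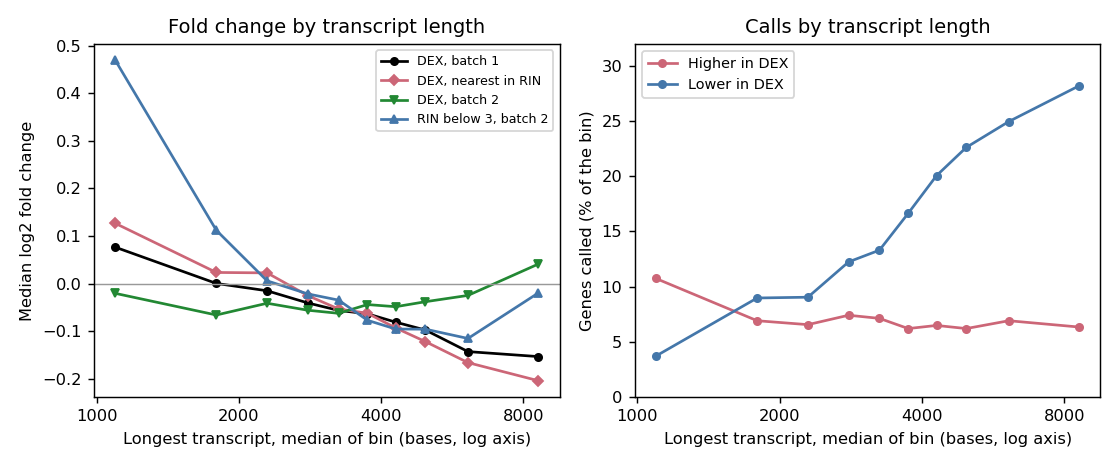
Left, median log2 fold change in 10 bins of protein-coding genes against the median length of the longest transcript of each bin (log axis), for DEX in the 11 libraries, in the libraries nearest in RIN and in batch 2, and for low RIN in batch 2. Right, percent of each bin higher or lower in DEX in batch 1; the share lower runs from 3.70% to 28.2% and the share higher from 10.7% to 6.33%.

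Batch 2 held the same comparison in 4 control libraries (RIN 7.4 to 8, 27.8 to 47.3 M counts) and 4 DEX libraries (RIN 7.4 to 7.7, 21.3 to 29.3 M counts), in which RIN differed little. There 89 genes (0.461%) were higher and 85 (0.441%) lower, 0.902% in all, and 3285 had an unadjusted p under 0.05. Genes called in batch 1 kept their sign in batch 2 in 77.5% of those higher and 75.2% of those lower, against 60.3% of all genes, and 82 were called in both batches in the same direction, 35 higher and 47 lower. They include the myelin genes Mobp (log2 2.05 in batch 2), Mal (2.37), Mag (0.87), Mbp (0.65) and Ugt8a, the stress genes Fosb (0.62), Fos (0.46) and Ppp1r15a (0.69), the sterol genes Mvk and Srebf2, and Tubb3 (−0.41).

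The difference of the DEX effect between the batches passed the test in 482 genes (2.50%), 345 (1.79%) with the larger value in batch 2 and 137 (0.71%) with the smaller. Jun differed, with 1.99 in batch 1 and 0.54 in batch 2 (difference −1.46, adjusted p = 0.0120), as did Eif2ak3 with 1.08 and 0.13 (−0.95, adjusted p = 0.00445), Grin2b with −0.80 and −0.02 (0.78, adjusted p = 0.0394) and Scn2a with −0.74 and −0.09 (0.65, adjusted p = 0.0120). For Mobp, Mal and Tubb3 the difference did not pass it. The 2 batches also differ in the depth and RIN contrast between their groups, so batch and these properties cannot be told apart.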

How the data were processed

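RNAseq was measured in 36 libraries, and the 11 of batch 1 with a labelled RIN of 6 or above are compared here, grouped by the treatment in the labels. The authors deposited 1 table of counts, whole numbers of reads per gene and library without normalization; their processing notes and methods name HISAT2 2.1.0, Subread 1.5.0-p2 and GRCm38. Which of their alignments the table holds, the annotation release and the strand of counting are not given in the sources used here, so overlapping and antisense genes are uncertain. The methods describe total RNA and the labels poly(A) selection. Symbols, biotypes and 1-based coordinates came from GENCODE M21 (55227 of 55492 entries matched).

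Genes with a mean count above 5 over the 11 libraries were tested with edgeR 4.0.16 (R 4.3.3), TMM factors and the quasi-likelihood test, with treatment alone in the model and Benjamini-Hochberg adjustment over all 19288 genes. The SE is the log2 fold change over the square root of F. CPM used TMM-scaled totals. The common biological coefficient of variation was 0.242, at 12.1 to 82.4 M counts per library. The fits of batch 2 and of low RIN (treatment group as a covariate) used the same genes. DESeq2 1.42.0, other scaling factors, filters, RIN or depth as a covariate, thinning, other libraries and leaving out each library were alternatives; leaving out the mitochondrial genome was chosen after seeing the data. The calculations were tested on simulated data.

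Genes named were the 15 largest rises and falls among called, non-overlapping genes with a mean of at least 1 CPM, glucocorticoid receptor targets and qPCR markers, and up to 4 members of each of 39 lists by smallest p; 14 genes and further list members were chosen after their values were seen. The comparison and the lists were chosen with earlier results of these data known. Lists are described by counts and medians only. A few individual genes picked by this rule are left without results here, while the list counts include them. No 2 libraries had identical counts.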

Additional observations from a re-analysis of the deposited data

Results flagged for a closer look

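A library far from the others of its group was found in 39 of 222 sets of values tested with Dixon's criterion (108 genes and 3 library measures in both groups), where chance flags about 1 in 20. Of these, 18 were DEX 7, which was highest in 17. The highest DEX level was that of DEX 7 for Tsc22d3 (24.9 CPM), Dusp1 (45.3), Slc2a1 (12), Klf9 (40.9), Zbtb16 (25.2), Nr3c1 (17.2), Fos (138), Arc (61.7), Bdnf (63.0), Pdgfra (15.9), Ptgds (14.3), Nefm (94.6), Map2 (2023), Camk2a (255), Grm5 (211), Arid5a (60.4) and mt-Rnr2 (304575 CPM). DEX 7 was lowest for Pcdha4, at 0 CPM. Mbp was set apart by DEX 9 (496 CPM), Snhg5 by DEX 8 (51.1 CPM) and mt-Nd3 by DEX 11, the lowest (3.90 CPM).

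Among the controls, library 1 was far the highest for Per1 (77.0 CPM), Klf15 (5.97), Klf9 (25.1), Nr3c1 (27.6), Nr3c2 (23.7), Fos (39.4), Arc (8.46), Bdnf (20.5), Slc17a7 (82.8), Sqle (389) and Arid5a (16.2 CPM). Control 4 was highest for Canx (574 CPM), control 6 for Pdgfra (4.80), Aqp4 (1.59) and Erbb3 (1.56 CPM), control 2 for Gria1 (349 CPM) and control 3 for Neat1 (8.48 CPM). Control 5 stood apart in depth, at 82.4 M counts. Control 1 and DEX 7 have the lowest RIN of their groups, and Klf9, Nr3c1, Fos, Arc, Bdnf and Arid5a were set apart by both.

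For 31 of the 108 genes named the DEX effect differed between the batches in the interaction term of edgeR. The effect in batch 2 minus that in batch 1, on the log2 scale, was negative for genes that rose in batch 1: Ddit4 (−0.76), Dusp1 (−1.27), Jun (−1.46), Jund (−0.90), Btg2 (−1.41), Eif2ak3 (−0.95), Cnp (−1.37), Kdr (−4.17), Notch1 (−1.49), Snhg5 (−0.82), Hist1h1c (−1.0), CT010467.1 (−1.78), Arhgef19 (−3.14), Arid5a (−2.41) and Creb5 (−1.94). It was positive for genes that fell there: Hsp90aa1 (0.66), Canx (0.63), Rbfox3 (0.42), Grin2b (0.78), Gria1 (0.56), Gabra2 (0.61), Erc2 (0.59), Homer2 (0.59), Scn2a (0.65), Stard4 (0.58), Scd1 (0.47), Tfrc (0.99), Psmd1 (0.92), Clock (0.70), Plxnc1 (0.72) and Serpini1 (0.89). All 31 were thus smaller in size or opposite in batch 2. Many of the 108 genes were named for their values in batch 1, so no conclusion is drawn from this direction. Over all genes the difference passed the test in 2.50%. Depth and RIN differed less between the groups of batch 2, and their part was not tested.

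The table has 5 transgene entries, which no comparison used. The egfp entry had 12 counts in DEX 7 and at most 1 in any control.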

How the results depend on the processing

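Of 1706 genes higher and 2304 lower, other settings gave 299 and 1187 (RIN as a covariate), 0 and 1 (log2 depth as a covariate), 921 and 1463 (libraries nearest in RIN), 632 and 1018 (all 36 libraries), and 2957 higher without a filter. DESeq2, both other scaling factors, at least 10 counts in every library, thinning, adding the DEX library of RIN 3.9 and leaving out the mitochondrial genome (1853 and 2038, chosen after seeing the data) stayed within 1.5 times. Without 1 library the counts ran from 1181 to 2011 and from 1681 to 2913, highest without DEX 7. In batch 2, upper-quartile factors gave 44 lower, DESeq2 521 and 489, and leaving out 1 library 9 to 374 higher and 0 to 494 lower (the most without DEX 30; without control 21 9 and 0 by edgeR, with 2435 at an unadjusted p under 0.05). For the difference between batches upper-quartile factors gave 223 with the larger value in batch 2, DESeq2 619 and 428, and leaving out 1 library 64 to 875 and 18 to 312. Log2 fold changes turned sign with RIN as a covariate for Per1 (−0.11), Tsc22d3 (−0.29), Klf15 (−0.27), Sgk1 (−0.10), Klf9 (−1.09), Zbtb16 (−0.42), Mt1 (−0.37), Fos (−1.08), Arc (−0.21), Bdnf (−2.74), Pdgfra (−2.55), Nefm (−0.036) and Per2 (−0.0020), in the libraries nearest in RIN for Klf9 (−0.23), Bdnf (−0.98) and Pdgfra (−1.13), and without DEX 7 for Klf9 (−0.048), Bdnf (−0.35) and Pdgfra (−0.81), where leaving out other libraries gave up to 0.85, 2.59 and 0.95; the cause was not tested. Thinning changed none of the 108 genes' calls or signs, and depth as a covariate left 94 of them no longer called. No paired analysis was possible because the replicate numbers of the groups differ throughout. Depth limits genes near 1 CPM most, at about 12 counts in the smallest library.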

Other observations

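Some lists were not described above. Clock genes had 4 rises and 3 falls among 21 tested, with Per2 (log2 0.85 ± 0.18), Per1, Nfil3 (0.57) and Bhlhe41 (0.84) higher and Clock itself (−0.54 ± 0.13), Tef (−0.52) and Bhlhe40 (−0.59) lower. Glycolysis and hypoxia genes had 3 rises, Hk2 (1.50 ± 0.30), Slc2a1 and Vegfa (0.45), and 8 falls among 28, among them Ldha (−0.43), Pgk1 (−0.40) and Pfkfb3 (−0.56). In the mTOR pathway 5 of 21 rose, including the muscle atrophy ligase Fbxo32 (1.50) and Foxo3 (0.68), and 4 fell, including Mtor (−0.39). Among the libraries nearest in RIN, 2 clock genes rose and 2 fell. Of glycolysis genes 1 rose and 7 fell there, and of mTOR genes 2 rose and 2 fell. At low RIN 3 clock genes were higher and 4 lower, 13 and 6 glycolysis genes, and 6 and 6 mTOR genes. Of all protein-coding genes 29.2% were higher and 29.9% lower at low RIN.

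Of 8 tested cytokine and NF-kB response genes Relb (log2 1.38), Nfkb2 (1.37) and Ptgs2 (3.55) rose and 0 fell, although glucocorticoids are known to lower this pathway; Ptgs2 stood at 0.29 among the libraries nearest in RIN (adjusted p = 0.906) and Relb at 1.27 (adjusted p = 0.0499). Of 18 tested interferon and antigen presentation genes Stat2 (−0.44) and Tapbp (−0.37) fell. Of 19 p53 targets and cell death genes Bbc3 (1.38), Btg2, Phlda3 (0.80) and Cdkn1a rose and 2 fell, among them Hrk (−0.40). Of 34 collagens 7 rose, including Col11a2 (1.32) and Col2a1 (1.27), and Col26a1 (−0.65) fell, and of 10 metallothionein and zinc transport genes Slc30a1 (−0.50) and Slc30a4 (−0.36) fell. Among the libraries nearest in RIN 2 cytokine genes, 3 p53 genes and 4 collagens rose, and 1 p53 gene fell. No interferon or zinc transport gene was called there. At low RIN 3 cytokine genes, 7 p53 genes and 13 collagens (median 0.71) were higher. For interferon genes 2 were higher and 6 lower, and for zinc transport genes 3 and 3. These counts stand beside 29.2% higher and 29.9% lower over all protein-coding genes at low RIN.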
